A study of Mus musculus with 18 samples.

Results

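The genes described are 37 genes of cholesterol and fatty acid synthesis, of the control of both by sterol regulatory element-binding proteins (SREBPs), and of sterol efflux, transport and storage, measured by RNA-seq in sorted mouse regulatory T cells (Treg). They were chosen as a list of pathway genes, of which those with at least 10 counts in at least 3 of the 18 libraries were kept. All 37 were in the count table and 35 passed, out of 23420 genes in the table and 10898 with that minimum. Scd1 and Fads2, the liver-type stearoyl-CoA and delta-6 desaturases, stayed below 10 counts in every library. The 35 genes were 7 of 7 in the mevalonate arm, 11 of 11 in the sterol arm, 5 of 5 in SREBP control, 8 of 10 in fatty acid synthesis and 4 of 4 in efflux, transport and storage.

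Treg were sorted from mice of 3 genotypes, which the labels write FCre x C1+/+, FCre x C1fl/+ and FCre x C1fl/fl, called +/+, fl/+ and fl/fl here. All 3 genotypes carry the element written FCre. Each genotype was sampled as resting and as effector Treg, and each of the 6 groups had 3 libraries with batch numbers 1 to 3, which also number the replicates. The sources used here do not give what drives FCre, the sex or age of the mice, the sorting markers or any treatment. Nothing in the labels ties a replicate to its own animal, so p-values measure only the spread between these samples, which may be technical.

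Library totals ran from 1658073 to 5756903 expected counts. All 8 Treg and T cell markers, Foxp3 and Il2ra among them, were present, and summed to 3050 to 4599 CPM (read counts scaled to 1000000 per library) in a library. The resting marker Lef1, a transcription factor of naive T cells, was lower in effector libraries of +/+ (156 ± 58.6 CPM, mean ± SD, n = 3) than in resting ones (438 ± 58.4 CPM, n = 3). Markers of other cells summed to at most 9.98 CPM for macrophages and monocytes, 8.8 CPM for dendritic cells, 29.5 CPM for plasma cells, 1.69 CPM for red cells and 0.242 CPM for neutrophils in any library, against 9.64 to 97.5 CPM for B cells and 43.7 to 111 CPM for CD8 and NK cells. The stroma and fat list reached 258 CPM, and the 1 of its 6 genes with enough counts to be tested was Pecam1, which T cells also express.

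Cholesterol is made from acetyl-CoA through mevalonate and the isoprenoids to squalene and lanosterol, which a series of enzymes turns into cholesterol. The SREBPs are transcription factors held in the endoplasmic reticulum by SCAP and the INSIG proteins while sterols are plentiful, and released to the nucleus, where they switch on these enzymes, when sterols fall. SREBP1 acts mainly on fatty acid synthesis and SREBP2 mainly on cholesterol synthesis, while excess sterol turns on the efflux pumps ABCA1 and ABCG1 through LXR receptors. Proliferating T cells need new membrane, and mevalonate products also anchor small GTPases to membranes, which Treg use in their activation.

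The promoters of the genes are shown because SREBPs act together with the factor NF-Y, which binds the CCAAT box, at such sites. The RefSeq windows of build GRCm38.p6 held 29 of the 37 genes, and the 250 bases before the start site were searched on both strands. The CCAAT box (CCAAT) was in 14 of 15 mevalonate and sterol arm genes with a window (93.3%) and in 22 of 29 of all the lipid genes (75.9%), against 37.49% of 27025 genes. The core of the sterol regulatory element (TCACNCCAC, where N is any base) was in 1 of the 29, Hmgcs1, against 1.22% of genes. The E-box (CACGTG) was in 7 of 29 (24.1%), against 6.86% of genes. The 27025 are all genes with a window, whether or not expressed in these cells. The shares among the genes tested here were not computed, so the sets differ in more than the pathway. A gene was counted where any of its windows held the letters, and a match is a description, not a shown binding site. Printed 5′ to 3′ on the strand of the gene are the last bases before the start of the called enzyme genes Hmgcs1, Pmvk and Elovl5 and of Idi1, Cyp51 and Msmo1 as further sterol pathway genes. Capitals mark CCAAT or its reverse complement ATTGG and, in Hmgcs1, the sterol element core.
Hmgcs1: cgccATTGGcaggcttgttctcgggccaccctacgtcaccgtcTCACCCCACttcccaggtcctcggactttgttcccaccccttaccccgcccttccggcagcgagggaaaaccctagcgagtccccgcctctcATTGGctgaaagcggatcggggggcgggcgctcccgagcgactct
Idi1: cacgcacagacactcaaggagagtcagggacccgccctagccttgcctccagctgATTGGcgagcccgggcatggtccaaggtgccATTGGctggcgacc
Cyp51: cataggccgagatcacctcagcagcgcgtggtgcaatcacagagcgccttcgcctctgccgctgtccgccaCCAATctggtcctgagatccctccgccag
Msmo1: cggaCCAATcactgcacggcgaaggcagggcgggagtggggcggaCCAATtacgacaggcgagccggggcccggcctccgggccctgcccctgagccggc
Pmvk: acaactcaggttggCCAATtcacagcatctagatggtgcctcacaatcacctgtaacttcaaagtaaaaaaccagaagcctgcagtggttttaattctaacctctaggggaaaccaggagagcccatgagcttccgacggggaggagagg
Elovl5: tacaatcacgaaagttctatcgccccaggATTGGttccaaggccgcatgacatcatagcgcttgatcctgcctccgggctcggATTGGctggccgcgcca
These are chr13:119690171-119690350 (plus strand) for Hmgcs1, chr13:8885506-8885605 (plus) for Idi1, chr5:4104698-4104797 (minus) for Cyp51, chr8:64733579-64733678 (minus) for Msmo1, chr3:89454391-89454540 (plus) for Pmvk and chr9:77917265-77917364 (plus) for Elovl5. The sterol element core of Hmgcs1 began 137 bases before the start, between CCAAT boxes at 176 and 45 bases.

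Levels between genes were compared per transcript length, as FPKM (fragments scaled by transcript length and library total) in the deposited table, over all 18 libraries. Elovl5, which lengthens polyunsaturated fatty acids, had the highest mean of the 18 libraries at 68.6 ± 8.03 FPKM (SD, n = 18). Acly, which makes cytosolic acetyl-CoA, followed at 60.4 ± 3.44 FPKM, then the sterol pump gene Abcg1 at 58.5 ± 6.68 and the long-chain elongase gene Elovl1 at 42.9 ± 5.48 FPKM. Acly and Abcg1 lay within each other's spread. The order did not hold in every group: in effector +/+ cells Elovl5 had 58.7 ± 2.48 FPKM, against 61.3 ± 4.47 for Acly and 59.5 ± 7.24 for Abcg1 (SD, n = 3). In the sterol pathway Ebp (32.7 ± 4.58 FPKM) and Fdps (32.2 ± 4.8 FPKM), an isomerase and the farnesyl diphosphate synthase, stood highest and did not differ beyond their spread.

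The controllers were well expressed, with Srebf2 at 30.4 ± 4.39 FPKM, Srebf1 at 25.2 ± 2.47 FPKM, Insig1 at 15.04 ± 2.35 FPKM, Scap at 12.7 ± 1.53 FPKM and Insig2 at 9.17 ± 1.74 FPKM. The lowest of the 35 were Hsd17b7, a sterol ketone reductase, at 1.09 ± 0.399 FPKM, the pump gene Abca1 at 1.99 ± 0.785 FPKM and Acaca, acetyl-CoA carboxylase 1, at 3.01 ± 0.626 FPKM. Abcg1 and Abca1 thus sat near opposite ends of the order. Of the pair of stearoyl-CoA desaturases, Scd2 reached 14.05 ± 4.37 FPKM and Scd1 0.114 ± 0.167 FPKM. Fads1, the delta-5 desaturase, was at 4.94 ± 1.13 FPKM and Fads2 at 0.131 ± 0.216 FPKM. The median of the 35 gene means was 11.7 FPKM, against 11.5 FPKM over the 10630 genes tested.

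Effector and resting Treg were compared within each genotype, to ask how the lipid genes differ with the state. A gene was called when its adjusted p (edgeR quasi-likelihood test on expected counts, Benjamini-Hochberg over all 10630 genes) was below 0.05, and each log2 change is effector over resting with its standard error (SE). In +/+ cells Pmvk, phosphomevalonate kinase, rose 1.57-fold, while Hmgcs1, the HMG-CoA synthase that opens the mevalonate arm, fell to 0.633 times and Elovl5 to 0.774 times the resting level. Pmvk also rose in fl/+ (1.56-fold) and fl/fl cells (1.79-fold), and Scd2, the desaturase that makes monounsaturated fatty acids, rose in fl/+ (1.73-fold) and fl/fl cells (1.6-fold). In this fit, which did not pair libraries by batch number, the remaining lipid genes did not pass in any genotype. So 3 of 35 were called in +/+ (1 higher, 2 lower), where 16% of all genes were. In fl/+ 2 of 35 were called, both higher, where 16.3% of all genes were, and in fl/fl 2 of 35, both higher, where 6.34% were. The share of lipid genes called was 8.57%, 5.71% and 5.71%, below that of all genes in +/+ and fl/+ and near it in fl/fl. Their median log2 change was -0.09 in +/+, 0.00 in fl/+ and 0.04 in fl/fl, against -0.01 for all genes in each. A fit that paired the libraries by batch number called more lipid genes, and more of all genes, in each genotype, as given below. In bulk RNA, a change in the share of cells that express a gene and a change in the RNA per cell cannot be told apart.

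**Figure D1:**
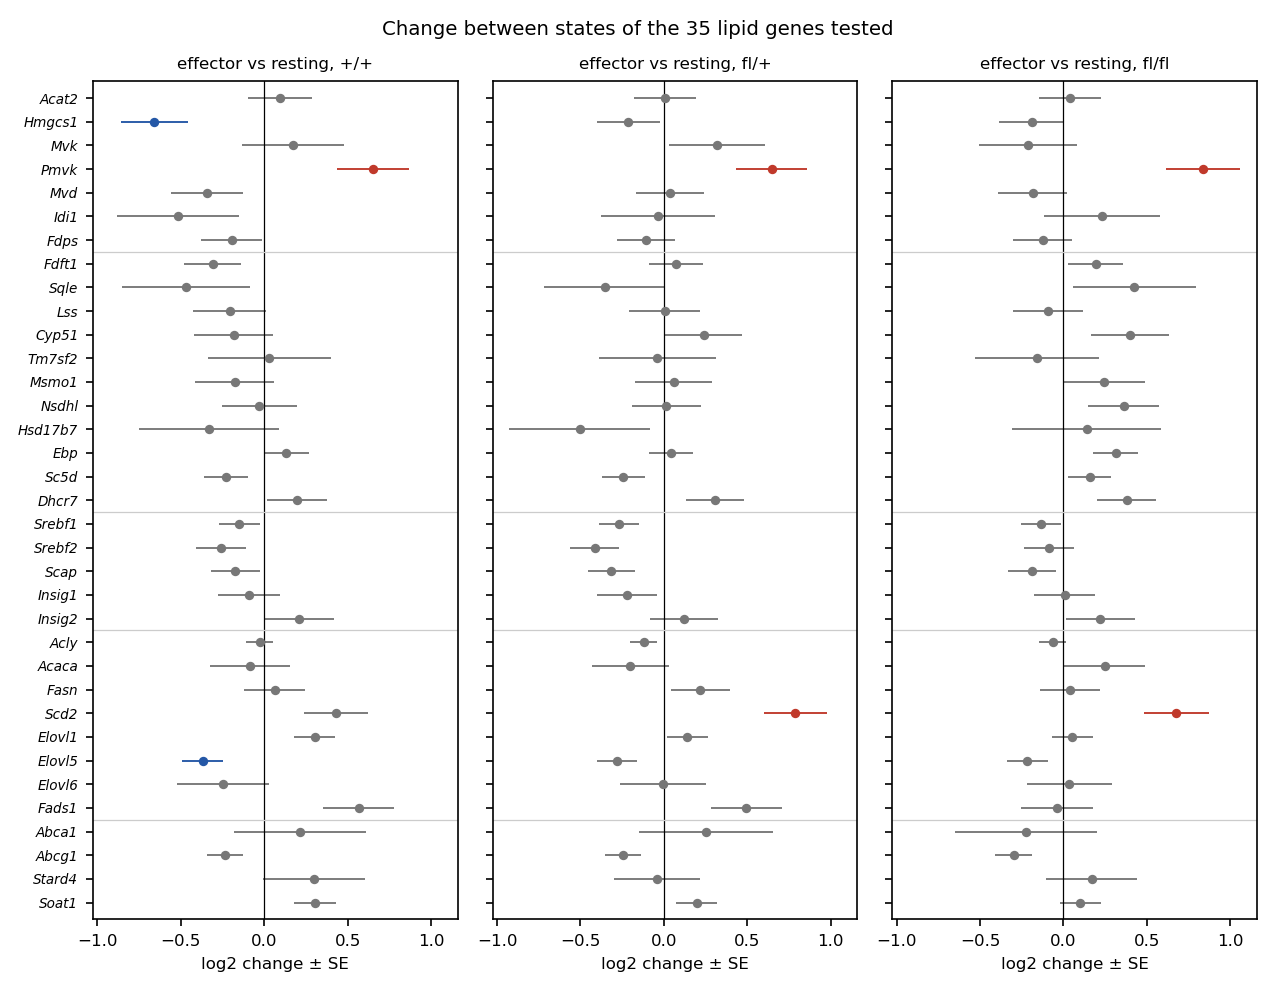
Each panel shows the log2 change (x axis, effector over resting, ± SE) of the 35 lipid genes (y axis) in 1 genotype, with grey lines between the mevalonate arm, sterol arm, SREBP control, fatty acid synthesis and efflux groups from top to bottom. Red marks a called rise and blue a called fall in edgeR's test: Pmvk is red in all 3 genotypes, Scd2 in fl/+ and fl/fl, and Hmgcs1 and Elovl5 are blue in +/+.

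In the mevalonate arm, Pmvk had 11.4, 16.2 and 9.87 CPM in the resting and 19.4, 21.7 and 17.7 CPM in the effector +/+ libraries (replicates 1, 2 and 3 in this order here and below, CPM on library sizes scaled by TMM). In fl/+ it had 11.4, 13.4 and 11.3 CPM in resting and 19.7, 19.2 and 17.4 CPM in effector libraries. In fl/fl the values were 10.7, 12.3 and 7.08 CPM and 17.3, 19.1 and 16.9 CPM. Every effector library was above every resting library, within and across genotypes. The log2 change was 0.65 (SE 0.22, adjusted p = 0.0474) in +/+, 0.65 (SE 0.21, adjusted p = 0.0427) in fl/+ and 0.84 (SE 0.22, adjusted p = 0.0269) in fl/fl. These calls were close to the threshold, and 7, 8 and 9 of 10 other settings made them in +/+, fl/+ and fl/fl. In fl/+ the call was lost on leaving out any 1 of the 6 libraries (adjusted p up to 0.144), in +/+ on leaving out any but resting replicate 2 (up to 0.169), and in fl/fl on leaving out effector replicate 1 or 2 or resting replicate 3 (up to 0.149).

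Hmgcs1 had 41.4, 37.3 and 48.6 CPM in resting and 29.4, 24.3 and 25.9 CPM in effector +/+ libraries, with no overlap. The log2 change was -0.66 (SE 0.20, adjusted p = 0.0288). Leaving out resting replicate 1 or 3 or effector replicate 2 or 3 of +/+ ended that call, with an adjusted p of at most 0.105, and 7 of 10 other settings made it. In fl/+ Hmgcs1 had 37, 47.6 and 35.2 CPM in resting and 33.8, 40.4 and 29.3 CPM in effector libraries (log2 change -0.21, SE 0.19, adjusted p = 0.514). In fl/fl it had 57.3, 42.9 and 31 CPM and 42.6, 37.9 and 32.6 CPM (-0.19, SE 0.19, adjusted p = 0.652). In both of these genotypes the states overlapped. The fall in +/+ was not shown to differ from them: the interaction was 0.45 (SE 0.28, adjusted p = 1) for fl/+ and 0.47 (SE 0.28, adjusted p = 0.652) for fl/fl.

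The other 5 mevalonate arm genes passed in no genotype. Acat2, which joins acetyl-CoA units, was the steadiest, with log2 changes of 0.09, 0.01 and 0.04 in +/+, fl/+ and fl/fl. Mvk, mevalonate kinase, had 0.17, 0.32 and -0.21 (SE 0.29 to 0.31). Mvd, the diphosphomevalonate decarboxylase, had -0.34, 0.04 and -0.18. Idi1, the isopentenyl diphosphate isomerase, varied most between replicates, with changes of -0.52, -0.04 and 0.23 and SEs of 0.34 to 0.37. Fdps had -0.20, -0.11 and -0.13. Within 1 linear pathway, the kinase gene Pmvk was thus called, and its neighbours on either side, Mvk and Mvd, were not. Whether the change of Pmvk differs from theirs was not tested.

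**Figure D2:**
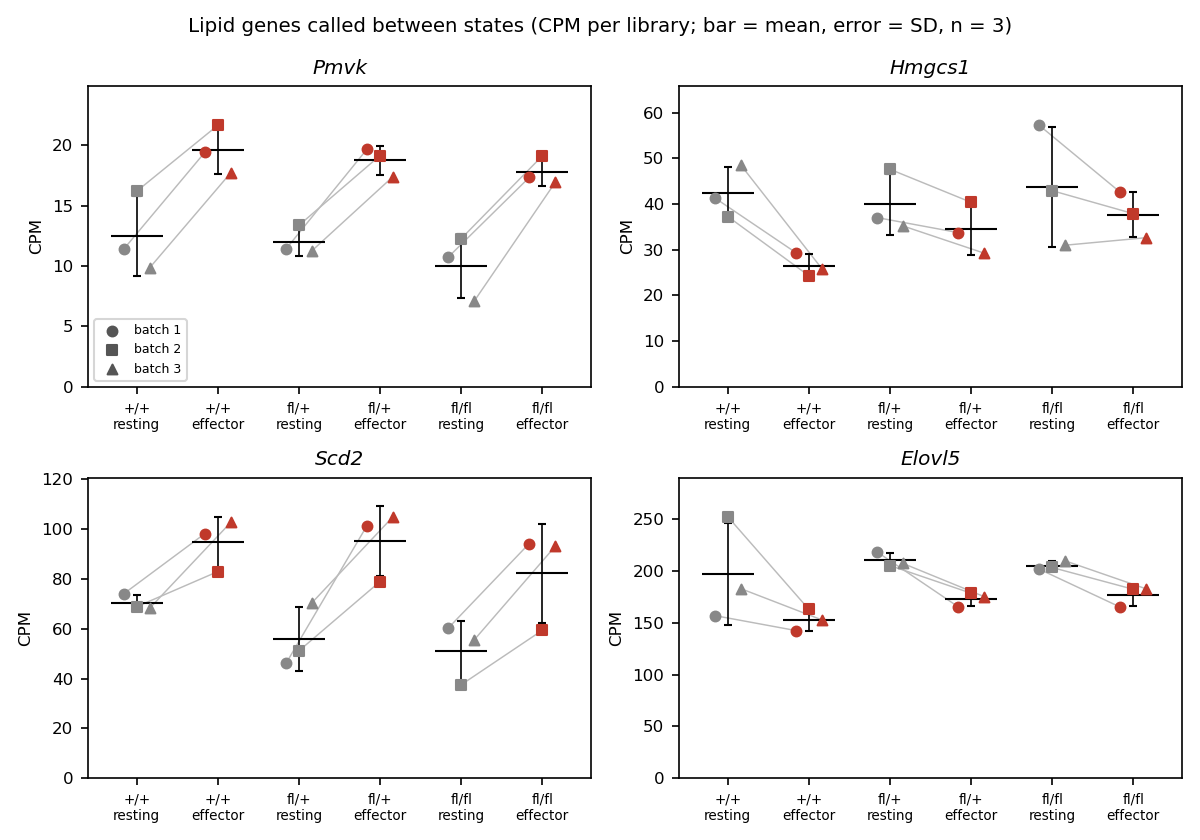
CPM (y axis, from 0) of Pmvk, Hmgcs1, Scd2 and Elovl5 in each library of the 6 groups (x axis), resting in grey and effector in red, with the shape giving the batch number, a line joining libraries of the same genotype and batch number, and the mean and SD of each group (n = 3) in black. All Pmvk effector points lie at or above 16.9 CPM and all its resting points at or below 16.2 CPM, and Hmgcs1 is low in the 3 effector libraries of +/+ (24.3 to 29.4 CPM).

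None of the 11 sterol arm genes passed between states by edgeR, in any genotype, and at an unadjusted p below 0.05 the counts were 0 of 11 in +/+, 0 of 11 in fl/+ and 2 of 11 in fl/fl, against 28.7%, 29.3% and 19.1% of all genes. Neither DESeq2 nor limma on log FPKM called one. Sqle, squalene epoxidase, a rate-limiting step, had 27.1, 14.6 and 11.1 CPM in resting and 14.4, 6.87 and 16.6 CPM in effector +/+ libraries. The fl/+ libraries had 24.6, 17.7 and 11.7 CPM and 14.1, 21 and 8.71 CPM, and in fl/fl 20.9, 12.6 and 12.4 CPM and 23.5, 22.1 and 14.5 CPM. Its states overlapped in each genotype, with log2 changes of -0.47 (SE 0.38), -0.35 (SE 0.36) and 0.42 (SE 0.37). Squalene synthase gene Fdft1 had -0.31, 0.07 and 0.19, and lanosterol synthase gene Lss -0.21, 0.00 and -0.09. The lanosterol demethylase gene Cyp51 had -0.18, 0.24 and 0.40, and the methylsterol oxidase gene Msmo1 -0.18, 0.06 and 0.24. Of the next enzymes Tm7sf2, a sterol reductase, had 0.03, -0.04 and -0.16, Nsdhl, a sterol dehydrogenase, -0.03, 0.01 and 0.36, and Hsd17b7 -0.33, -0.50 and 0.14. Of the last enzymes Ebp had 0.13, 0.04 and 0.31, the desaturase gene Sc5d -0.23, -0.24 and 0.16, and the final reductase gene Dhcr7 0.20, 0.31 and 0.38. By sign, 8 of 11 lay below zero in +/+, 4 of 11 in fl/+ and 2 of 11 in fl/fl, with medians of -0.18, 0.01 and 0.24.

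Summed over the 18 mevalonate and sterol genes, +/+ cells had 454 ± 44.3 CPM when resting and 410 ± 33.4 CPM as effectors (SD, n = 3). In fl/+ the sums were 443 ± 54.8 and 452 ± 41.7 CPM, and in fl/fl 449 ± 48.5 and 498 ± 23.7 CPM. The resting and effector ranges overlapped in all 3 genotypes, while among effector cells every fl/fl sum (470.3 to 513 CPM) was above every +/+ sum (374 to 439 CPM). Proliferation markers moved with the state beside these values, with 12 of 12 above zero in every genotype. Called higher were 9 of 12 in +/+, 11 of 12 in fl/+ and 12 of 12 in fl/fl. Of all genes 16%, 16.3% and 6.34% were called in either direction. The marker sum went from 74 ± 16.3 to 238 ± 156 CPM in +/+ and from 69.4 ± 47.8 to 543 ± 107 CPM in fl/fl. The part of these markers in the lipid gene values was not tested.

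**Figure D3:**
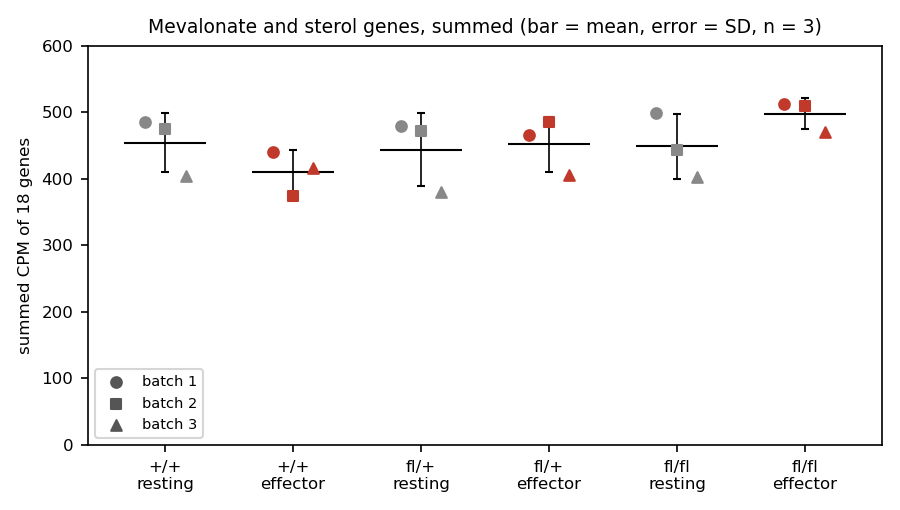
Summed CPM of the 18 mevalonate and sterol genes (y axis, from 0) in each library of the 6 groups (x axis), with the shape giving the batch number and the mean and SD (n = 3) in black. The resting groups have means of 443 to 454 CPM, the effector groups 410 in +/+, 452 in fl/+ and 498 in fl/fl.

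Of the controllers, Srebf2, which encodes SREBP2, had 143, 151 and 131 CPM in resting and 127, 96.2 and 130 CPM in effector +/+ libraries. In fl/+ it had 184, 150 and 149 CPM and 129, 144 and 90 CPM, and in fl/fl 167, 134 and 133 CPM and 132, 139 and 139 CPM. Effector libraries were below all resting ones in +/+ and fl/+, and not in fl/fl, with log2 changes of -0.26 (SE 0.15, adjusted p = 0.274), -0.42 (SE 0.15, adjusted p = 0.0623) and -0.09 (SE 0.15, adjusted p = 0.823). With libraries of 1 genotype and batch number paired as a replicate block, Srebf2 was called in fl/+ (-0.43, adjusted p = 0.0189).

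Srebf1, which encodes SREBP1, had 125, 121 and 97.9 CPM in resting and 96.7, 108 and 107 CPM in effector +/+ libraries. In fl/+ the values were 106, 113 and 125 CPM and 97.2, 89.6 and 97.5 CPM, and in fl/fl 105, 104 and 122 CPM and 115, 99.3 and 84.6 CPM. The states overlapped in +/+ and fl/fl and not in fl/+, where the log2 change was -0.27 (SE 0.12, adjusted p = 0.136). Insig1, an SREBP target that retains SREBPs, had 44.1, 41.3 and 32 CPM in resting and 42, 40.2 and 28.1 CPM in effector +/+ libraries. It had 48.5, 33.8 and 32.4 CPM and 36.1, 35 and 29 CPM in fl/+, and 45.3, 45.8 and 34.5 CPM and 41.2, 44.6 and 39.9 CPM in fl/fl. The states overlapped in every genotype, with changes of -0.09, -0.22 and 0.01 (SE 0.18 to 0.19). Insig2 had changes of 0.21, 0.12 and 0.22, and Scap, the escort protein, -0.17, -0.32 and -0.19, none called.

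In fatty acid synthesis, Scd2 had 74.1, 68.9 and 68.3 CPM in resting and 98.2, 83 and 103 CPM in effector +/+ libraries. Its values in fl/+ were 46.1, 51.2 and 70.4 CPM and 101, 79 and 105 CPM, and in fl/fl 60.2, 37.5 and 55.5 CPM and 94.2, 59.4 and 93.1 CPM. The states did not overlap in +/+ or fl/+, and in fl/fl effector replicate 2 lay just below resting replicate 1. The log2 change was 0.79 (SE 0.19, adjusted p = 0.00646) in fl/+ and 0.68 (SE 0.19, adjusted p = 0.0406) in fl/fl. In +/+ it was 0.43 (SE 0.19, adjusted p = 0.136) and was called with the replicate block (0.42, adjusted p = 0.0157). The fl/+ call was lost without resting replicate 1 (adjusted p = 0.0549), and the fl/fl call without effector replicate 1 or 3 or resting replicate 2 or 3 (up to 0.233). The interactions were 0.36 (SE 0.27, adjusted p = 1) for fl/+ and 0.25 (SE 0.27, adjusted p = 0.85) for fl/fl. In 17 of 18 libraries the expected count of Scd2 was not whole, as happens where RSEM divides reads that fit more than 1 gene or transcript.

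Elovl5 had 157, 252 and 183 CPM in resting and 142, 163 and 153 CPM in effector +/+ libraries, which overlapped. In fl/+ it had 218, 205 and 207 CPM and 165, 178 and 175 CPM, and in fl/fl 202, 203 and 210 CPM and 165, 182 and 183 CPM, with no overlap in either. The log2 change was -0.37 (SE 0.12, adjusted p = 0.0469) in +/+, -0.28 (SE 0.12, adjusted p = 0.123) in fl/+ and -0.22 (SE 0.12, adjusted p = 0.358) in fl/fl. The call in +/+ rested on resting replicate 2: without it the change was -0.14 (adjusted p = 0.401), and it was also lost without any 1 of the 3 effector libraries. Of 10 other settings 3 made the call, and limma on log FPKM (adjusted p = 0.154) and DESeq2 (adjusted p = 0.0519) did not. With the replicate block Elovl5 was called in fl/+ as well (-0.28, adjusted p = 0.0344).

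Fasn, the fatty acid synthase gene, had 63.9, 70.5 and 55.3 CPM in resting and 70.3, 60.3 and 66.5 CPM in effector +/+ libraries. It had 57.5, 72.8 and 62.5 CPM and 70.8, 77.4 and 75.2 CPM in fl/+, and 60.2, 45.5 and 88.3 CPM and 66.9, 77.5 and 53.8 CPM in fl/fl. The states overlapped throughout, with changes of 0.06, 0.22 and 0.04 (SE 0.18). The genes that supply it did not pass either: Acly had -0.03, -0.12 and -0.06 with an SE of 0.08, the smallest SE of the 35, and Acaca -0.09, -0.20 and 0.25. Of the other chain-modifying enzymes, Elovl1 had 0.30, 0.14 and 0.05, Elovl6, which lengthens palmitate, -0.25, -0.01 and 0.03, and Fads1 0.57, 0.49 and -0.04. In +/+ Fads1 (SE 0.21, adjusted p = 0.0791) and Elovl1 (SE 0.12, adjusted p = 0.109) were called by limma on log2(FPKM + 1), with adjusted p-values of 0.0301 and 0.0206.

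Among efflux, transport and storage genes, Abcg1 had 388, 350 and 427 CPM in resting and 343, 290 and 354 CPM in effector +/+ libraries. The fl/+ libraries gave 344, 341 and 380 CPM and 282, 288 and 328 CPM, and in fl/fl 316, 363 and 396 CPM and 266, 285 and 326 CPM. Effector was below resting within every batch number of every genotype, while the groups overlapped in +/+ and fl/fl. The log2 changes of -0.24 (SE 0.11, adjusted p = 0.159), -0.24 (SE 0.11, adjusted p = 0.142) and -0.30 (SE 0.11, adjusted p = 0.127) were not called. With the replicate block they were, at -0.24 (adjusted p = 0.0299), -0.25 (adjusted p = 0.023) and -0.29 (adjusted p = 0.017). With the block 5 of 35 lipid genes were called in +/+, 5 of 35 in fl/+ and 3 of 35 in fl/fl, where 20.5%, 21.3% and 10.1% of all genes were.

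Abca1 had 21.3, 14.6 and 34 CPM in resting and 33, 23.3 and 23.3 CPM in effector +/+ libraries. In fl/+ it had 13.8, 25.6 and 14.6 CPM and 25.3, 12.9 and 24.7 CPM, and in fl/fl 15.2, 6.86 and 29.5 CPM and 16.4, 9.06 and 20.6 CPM. The states overlapped in each genotype, and replicate 2 was the lowest library of both fl/fl groups. The changes were 0.22 (SE 0.40), 0.25 (SE 0.40) and -0.22 (SE 0.43). Stard4, a sterol carrier, had 0.30, -0.04 and 0.17, and Soat1, which makes cholesteryl esters for storage, 0.30, 0.20 and 0.10, none called.

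Genotypes were compared within each state, to ask whether the lipid genes differ with the fl alleles. By edgeR none of the 35 was called. In effector cells 0 of 35 passed between fl/fl and +/+, where 2.81% of all genes did, and 7 of 35 had an unadjusted p below 0.05 against 17.3% of all genes. In resting cells 0 of 35 passed between fl/fl and +/+, where 0.696% of all genes did (3 of 35 unadjusted, against 8.21% of all genes). Between fl/+ and +/+, 0 of 35 passed in effector cells (0.00941% of all genes, and unadjusted 2 of 35 against 5.47%) and 0 of 35 in resting cells (0.0847%, and unadjusted 1 of 35 against 6.29%). Between fl/fl and fl/+, 0 of 35 passed in effector cells (0.677%, and unadjusted 1 of 35 against 11.8%) and 0 of 35 in resting cells (0.0282%, and unadjusted 0 of 35 against 4.83%). These comparisons share libraries, so their values are not independent. DESeq2 called 1, Stard4 between fl/+ and +/+ in resting cells, and limma on log FPKM called 0 in all 6.

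**Figure D4:**
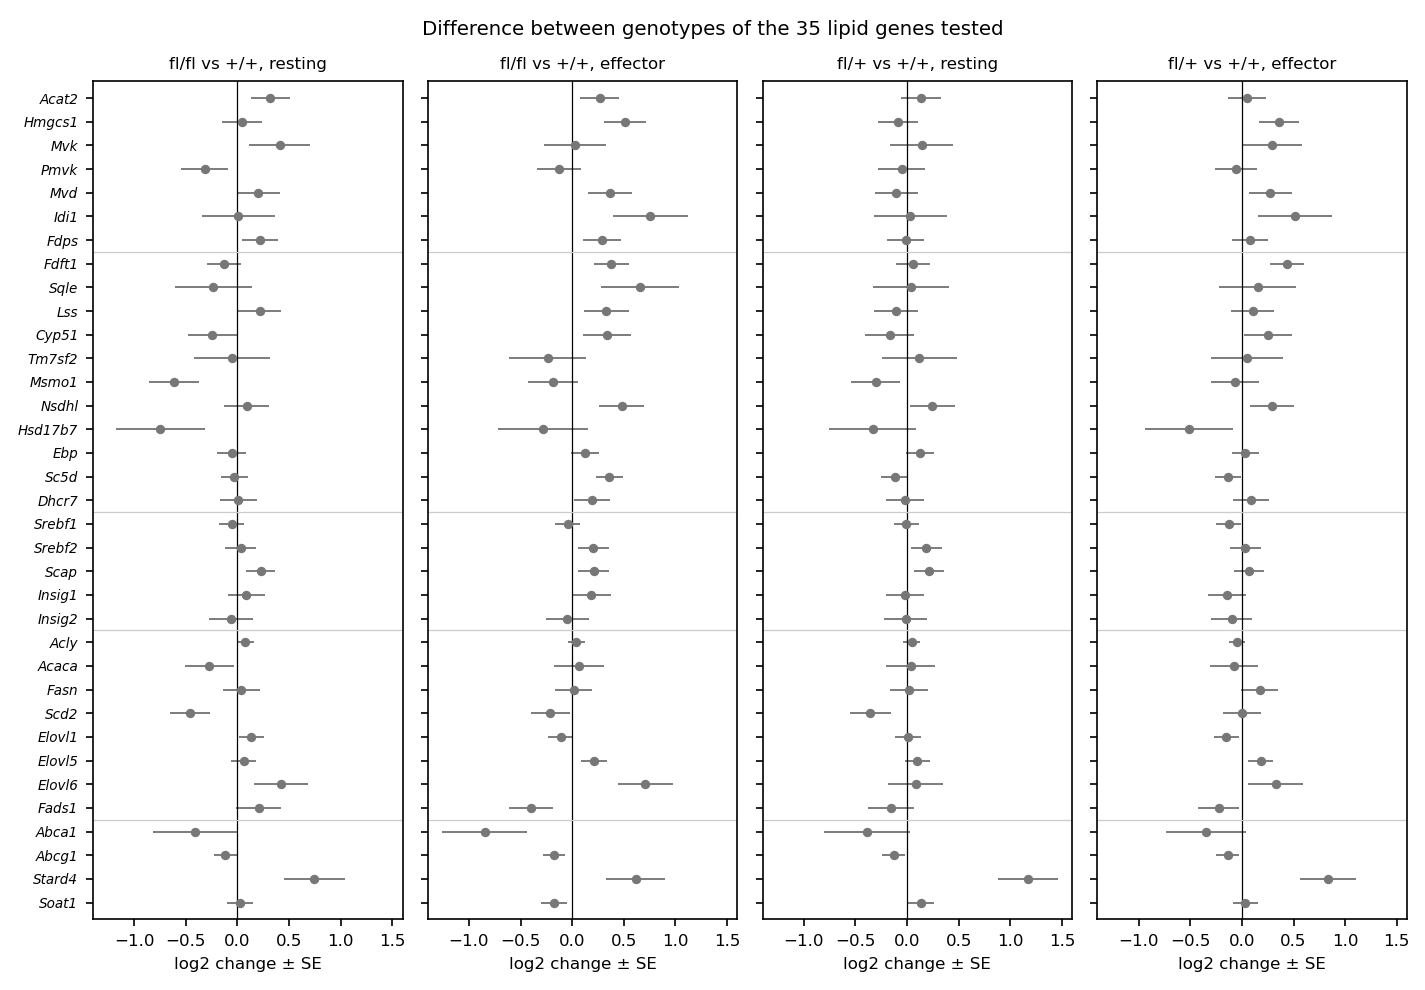
Each panel shows the log2 difference (x axis, ± SE) of the 35 lipid genes (y axis) between the genotypes and in the state named above it, with grey lines between the groups of genes. None is called by edgeR, so all are grey, and Stard4 has the largest difference, 1.17 in resting fl/+ over +/+.

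In fl/fl over +/+ effector cells 14 of the 18 mevalonate and sterol genes lay above zero, with a median log2 difference of 0.31, against 51% of all genes and a median of 0.01. In fl/+ over the same +/+ effector libraries 14 of 18 also lay above zero, with a median of 0.10, against 49.5% of all genes. Among them Idi1 had 18.2, 10.6 and 12.9 CPM in +/+ and 23.1, 28.9 and 20.6 CPM in fl/fl (0.76, SE 0.36, adjusted p = 0.29). Hmgcs1 was 0.51 higher (SE 0.20, adjusted p = 0.179), with every fl/fl library above every +/+ library. Sc5d had 49.6, 43.9 and 43.6 CPM in +/+ and 61.9, 52.3 and 62.9 CPM in fl/fl, also without overlap (0.36, SE 0.13, adjusted p = 0.146). The differences of Sqle (0.66, SE 0.38), Nsdhl (0.48, SE 0.22) and Fdft1 (0.38, SE 0.17) pointed the same way. The genes below zero were Pmvk (mean 19.6 CPM in +/+ and 17.8 CPM in fl/fl), Msmo1 (25.9 and 22.4 CPM), Tm7sf2 (6.34 and 5.3 CPM) and Hsd17b7 (5.26 and 4.25 CPM). In resting cells the same 18 genes were split 9 and 9, with a median of -0.01, and the largest negative differences were in Hsd17b7 (-0.75, SE 0.43) and Msmo1 (-0.61, SE 0.24).

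Other measures differed between the same effector groups. Lef1 was higher in fl/fl (326 ± 18.1 CPM) than in +/+ effector cells (156 ± 58.6 CPM), with a log2 difference of 1.06 (SE 0.18, adjusted p = 0.00425). The proliferation markers summed to 543 ± 107 CPM against 238 ± 156 CPM, with 2 of 12 called and 12 of 12 above zero. The part of either in the lipid gene values was not tested.

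Whether the state change itself differs with genotype was tested by interaction. For fl/fl against +/+ 0 of 35 lipid genes passed (0% of all genes, and unadjusted 2 of 35 against 8.97%), with 10 of 11 sterol arm genes above zero and a median of 0.39 for that arm, against 50.6% and 0.01 for all genes. The largest were Sqle (0.89, SE 0.53, adjusted p = 0.652) and Idi1 (0.75, SE 0.51, adjusted p = 0.716). For fl/+ against +/+ 0 of 35 passed (0.0188% of all genes, and unadjusted 0 of 35 against 3.23%), with a median of -0.01 over the 35. The sterol arm there had 7 of 11 genes above zero and a median of 0.11, against 50.2% and 0.001 for all genes. DESeq2 and limma called none in either interaction.

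Among the fatty acid genes Elovl6 had 15.2, 10 and 22.9 CPM in +/+ and 29.3, 25.5 and 24.2 CPM in fl/fl effector cells. The groups did not overlap, and the log2 difference was 0.71 (SE 0.27, adjusted p = 0.161). Of 6 fits that left out 1 library, only the one without +/+ effector replicate 3 called it (1.01, adjusted p = 0.0436). That library was the highest of +/+, so its removal enlarges the difference. Over all alternatives the adjusted p reached 0.47. Abca1 was lower in fl/fl than in +/+ effector cells in every library (-0.85, SE 0.41, adjusted p = 0.303).

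Stard4 showed the largest difference between genotypes. It had 13.2, 10.5 and 22.5 CPM in resting +/+, 39, 33.5 and 30.1 CPM in resting fl/+ and 23.6, 33.2 and 20.7 CPM in resting fl/fl libraries. In effector cells it had 17.7, 13.2 and 24.8 CPM in +/+, 38.6, 31.1 and 30.5 CPM in fl/+ and 30.8, 36.9 and 15.7 CPM in fl/fl. Within each state every fl/+ library was above every +/+ library, and fl/fl overlapped both other genotypes in resting and in effector cells. The difference between fl/+ and +/+ was 1.17 (SE 0.29, adjusted p = 0.195) in resting and 0.83 (SE 0.28, adjusted p = 0.555) in effector cells. Replicate 3 was the highest +/+ library in both states, so its removal enlarges the difference. Of 6 fits that left out 1 library, only the one without it called the resting difference (1.51, adjusted p = 0.0256). Over all alternatives the adjusted p of the resting difference ran from 1.07e-05, by edgeR with no filter on low counts, to 0.847. DESeq2 gave 1.17 (adjusted p = 0.0214) on all libraries, and the difference between fl/fl and fl/+ was -0.43 (SE 0.27, adjusted p = 1) in resting cells.

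The labels number the batches 1 to 3 and do not say what a batch is. With the batch number added to the groups, 0 of 35 lipid genes passed by edgeR, where 1.65% of all genes did, and 9 of 35 had an unadjusted p below 0.05 (25.7%, against 16.3% of all genes). From batch 1 to batch 3, 16 of 18 mevalonate and sterol genes had a log2 difference below zero (88.9%, median -0.18), against 50.7% of all genes. Cyp51 was lowest in batch 3 in 6 of 6 groups, with a difference of -0.52 (adjusted p = 0.0645). Its values were 41.1, 33.6 and 28.8 CPM in resting and 34.2, 34.4 and 23.3 CPM in effector +/+ libraries. Insig1 (-0.40, adjusted p = 0.068) and Pmvk (-0.18, adjusted p = 0.31) were also lowest in batch 3 in 6 of 6 groups, and Msmo1 (-0.48, adjusted p = 0.121), Idi1 (-0.67, adjusted p = 0.156) and Sqle (-0.70, adjusted p = 0.203) in 5 of 6, as were Fdft1 and Fdps. Abcg1 went the other way and was lowest in batch 3 in 0 of 6 groups (0.19, adjusted p = 0.093). Each group holds 1 library of each batch, so the batches are balanced over states and genotypes.

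**Figure D5:**
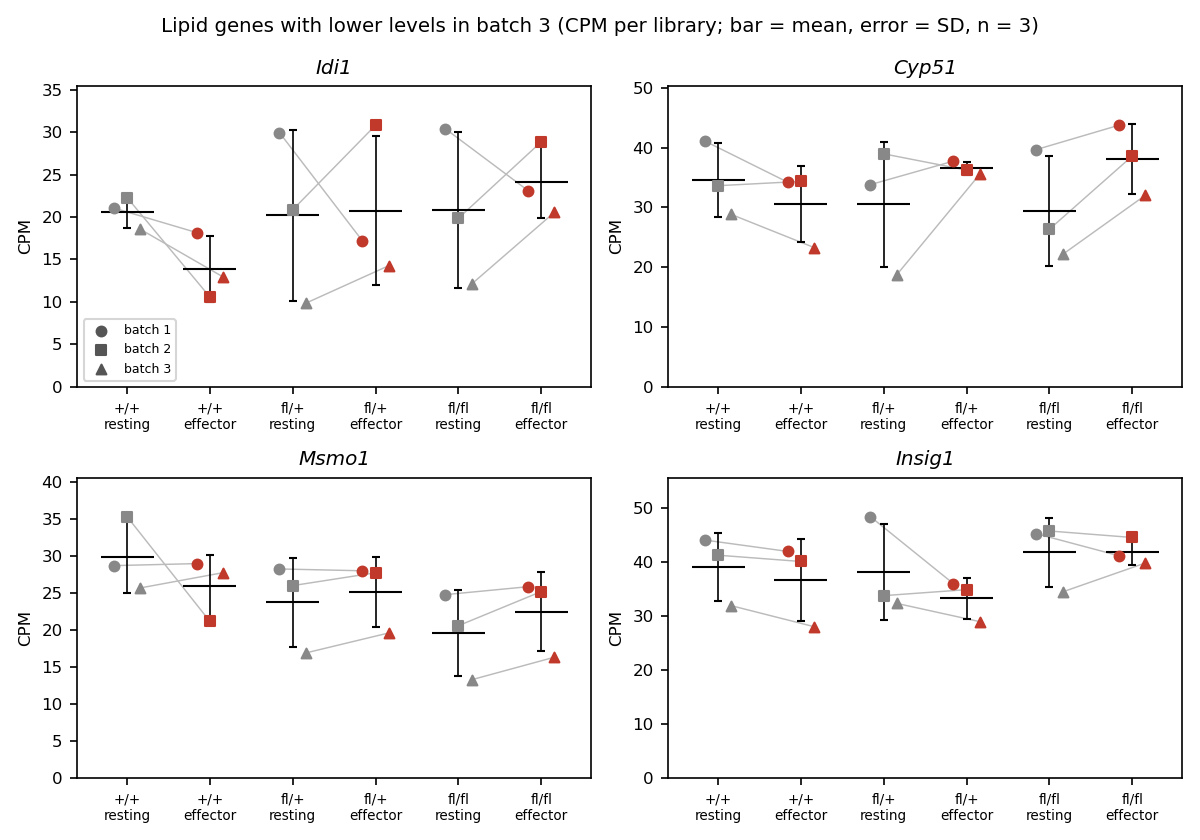
CPM (y axis, from 0) of Idi1, Cyp51, Msmo1 and Insig1 in each library of the 6 groups (x axis), resting in grey and effector in red, with the shape giving the batch number, lines joining libraries of the same genotype and batch number, and the mean and SD of each group (n = 3) in black. The triangles of batch 3 are lowest in 6 of 6 groups for Cyp51 and Insig1 and in 5 of 6 for Idi1 and Msmo1.

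Genes of neighbouring pathways were read from a list of 82, of which 76 were tested. Between states 12 of 76 were called in +/+ (7 higher, 5 lower), 13 of 76 in fl/+ (7 higher, 6 lower) and 7 of 76 in fl/fl (3 higher, 4 lower), near the shares of all genes. Those described are at most 5 called genes per comparison, by size of log2 change, with the calls of the same genes in the other genotypes. Acss2, which makes acetyl-CoA from acetate, fell by 1.52 (SE 0.19) in +/+, by 1.37 (SE 0.17) in fl/+ and by 0.79 (SE 0.17) in fl/fl, with adjusted p-values of 2.18e-05, 3.68e-05 and 0.00841. It was the only one of the 76 called between genotypes, 1.10 higher in fl/fl than in +/+ effector cells (55.3 against 25.4 CPM, SE 0.19, adjusted p = 0.00448) and 0.82 higher than in fl/+ (SE 0.18, adjusted p = 0.0375). Rxra, the receptor partner of LXR, rose by 1.87 (SE 0.30) in +/+, 1.46 (SE 0.29) in fl/+ and 1.24 (SE 0.29) in fl/fl. Decr1, an enzyme of unsaturated fatty acid oxidation, rose by 1.06 (SE 0.29) in +/+ and 1.35 (SE 0.28) in fl/+, and Fabp5, a fatty acid carrier, by 1.10 (SE 0.24) in fl/+ and 1.26 (SE 0.26) in fl/fl. In +/+ the others were Agpat4, an acyltransferase of glycerolipid synthesis, which rose by 1.43 (adjusted p = 0.00661), and Pdss1, which builds the ubiquinone tail and fell to 0.436 times the resting level (adjusted p = 0.0253). In fl/+ Acsl3, an acyl-CoA synthetase, fell by 1.72 (SE 0.34, adjusted p = 0.00133). In fl/fl Mylip, an LXR target that degrades lipoprotein receptors, fell by 0.63 (SE 0.16, adjusted p = 0.0257), and Etfb, an electron carrier of fatty acid oxidation, rose by 0.60 (SE 0.12, adjusted p = 0.00491). Mylip was also called lower in +/+ (-0.50, adjusted p = 0.045) and fl/+ (-0.62, adjusted p = 0.0117). Etfb was called higher in +/+ (0.68) and fl/+ (0.35) as well, and Fabp5 in +/+ (0.99).

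The counting may not always have separated the lipid genes from their neighbours. In the GENCODE M21 annotation of GRCm38, Fdft1 shares 774 exon bases with Ctsb, Tm7sf2 532 with Vps51, Lss 381 with 4930483K19Rik, Cyp51 166 with Akap9, Srebf1 109 with Rai1, Scd2 61 with Mir5114 and Elovl1 53 with Cdc20. The sources used here give no strand setting or annotation, so whether this affected the values of these 7 genes is not known. Expected counts were not whole in all 18 libraries for Acat2, Sc5d and Soat1, in 16 for Fdft1, in 12 for Abcg1 and in 11 for Elovl5, against 2 for Hmgcs1 and Pmvk. Of the other genes that share exon bases, Scd2 had 17 such libraries, Cyp51 9, Elovl1 4, Lss and Srebf1 2 and Tm7sf2 1. Acat2, Sc5d and Soat1 share no exon bases with another gene that the count table holds under its GENCODE name. Genes absent from it or held under an older symbol were not checked for overlap.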

How the data were processed

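RNA-seq of sorted mouse Treg gave 18 libraries in 6 groups of 3. The submitters' processing notes list RSEM 1.2.8, STAR 2.6.0, bcl2fastq 2.17.1.14 and build mm10. The sources used here give no annotation, strand setting or filters. The authors deposited RSEM expected counts per gene, the input of all main tests, and FPKM, used for levels between genes and in alternatives. All were rounded, since 29.4% of the values above 0 were fractional. The median library total was 3154386.5, and totals limit the precision of low genes.

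Genes were kept by filterByExpr (10630), scaled by TMM and tested with edgeR 4.0.16 (R 4.3.3, limma 3.58.1) as 6 group means, with 12 residual degrees of freedom. The Benjamini-Hochberg adjustment ran over all genes, and p below 0.05 was called. SE is the log2 change over the root of F. The steps were tested on simulated data. Ratios within a batch number used CPM + 0.5. Alternatives were DESeq2 1.42.0 (test, and size factors), library totals alone, other filters, no Rn45s, limma on log2(FPKM + 1) and log2(FPKM + 0.1), only the groups compared, a replicate block, and leaving out each library. The labels' batch numbers pair the libraries: deviations from the group means of the resting and effector libraries of 1 genotype and number correlated at 0.14 to 0.34 in 9 of 9 pairs.

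Genes and lists were chosen with earlier results of these data known. Values per library are printed for genes called in at least 1 of 11 comparisons and for Srebf1, Srebf2, Insig1, Hmgcs1, Sqle, Fasn, Abca1 and Abcg1. Those of Idi1, Sc5d, Elovl6, Cyp51 and Stard4 were added after their values were seen. Neighbouring genes are named where called, at most 5 per comparison by size of log2 change, with the calls of the same genes in the other genotypes. The locus targeted by the fl alleles is not reported here. Msmo1 was matched by its older symbol Sc4mol.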

Additional observations from a re-analysis of the deposited data

How the results depend on the processing

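The number of lipid genes called was compared over 10 other settings and the fits that leave out 1 library. In the state comparison of +/+ it was 3, and DESeq2 gave 1 (Hmgcs1) and the replicate block, which pairs libraries by batch number, 5. There limma on log FPKM also gave 3, of which Pmvk was shared and Elovl1 and Fads1 were not. In fl/+ it was 2, and DESeq2 gave 1 (Scd2) and the replicate block 5. In fl/fl it was 2, and a fit of only the groups compared gave 0, and the replicate block gave 3. Leaving out 1 library gave 0 to 2 in each of these 3 comparisons. Between genotypes the count was 0. With no filter on low counts it was 3 for fl/fl against +/+ in effector cells (Abca1, Elovl6, Idi1) and 1 (Stard4) for fl/fl against +/+ in resting cells and for fl/+ against +/+ in either state. DESeq2 gave 1 for fl/+ against +/+ in resting cells. Leaving out 1 library gave 0 to 1 for fl/fl against +/+ in effector cells and for fl/+ against +/+ in resting cells, and 0 in the other comparisons of genotypes and in both interactions. The replicate block changed no call between genotypes or in the interactions. No setting reversed a direction of a called gene. The cause of these shifts was not tested. With the replicate block 20.5%, 21.3% and 10.1% of all genes were called between states in +/+, fl/+ and fl/fl. For the other settings the share of all genes is not given here, so their counts are not read as a result about lipid genes. With 3 libraries a group and these totals, genes at few CPM such as Hsd17b7, Tm7sf2 and Mvk have SEs of 0.29 to 0.61, so moderate changes could not be detected.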

Other observations

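Within batch numbers, Sc5d was lower in effector than in resting cells in 3 of 3 pairs of +/+ (log2 -0.36, -0.23 and -0.06) and higher in 3 of 3 pairs of fl/fl (0.28, 0.02 and 0.17). The interaction was 0.39 (SE 0.18, adjusted p = 0.555, edgeR). These signs were noticed in the data and not tested apart from the interaction, and the expected count of Sc5d was not whole in all 18 libraries.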
